A study of Mus musculus with 12 samples.

Results

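Brain hemispheres that held a stroke were compared between male mice lacking Lama4 (Lama4-/-) and wild-type (WT) mice, both 12 weeks old. The comparison uses 6 of the 12 RNA-seq libraries of the series, the 3 labelled Lama4-/- ipsilateral and the 3 labelled WT ipsilateral, chosen by these labels and tested on raw counts over all genes. In every mouse of both genotypes the left middle cerebral artery had been closed with a filament for 60 min and reperfused for 24 h, so the WT group carries the same stroke and operation as the knockout. Each library pools brains of 2 mice, and a whole hemisphere without olfactory bulb and cerebellum was homogenized after perfusion with PBS, so the values mix injured and spared tissue. Blood and its immune cells were meant to be washed out, per the labels' protocols. The other 6 libraries come from the opposite (contralateral) hemispheres and are used here only beside a result.

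Lama4 encodes a laminin alpha 4 chain, which endothelial cells deposit in the basement membrane around cerebral vessels, where it meets the alpha 5 chain and integrin receptors. After arterial occlusion, glia and endothelium release cytokines and chemokines and display selectins, and neutrophils and then monocytes enter through the vessel wall and this membrane. Neurons answer strong activity with immediate early genes, among them transcription factors of the Egr and Nr4a families and phosphatases that shut down MAP kinases.

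Lama4 was the only gene that edgeR called different between the genotypes. Levels are given in CPM, the reads of a gene scaled to library size, with TMM normalization within the hemisphere, and called means an adjusted p under 0.05 over the 15208 genes tested. Lama4 (ENSMUSG00000019846, chromosome 10, 38965515 to 39110188, plus strand, mm10) stood at 15.2, 15.1 and 14.9 CPM in WT libraries 1 to 3 and at 0.821, 0.225 and 0.599 CPM in Lama4-/- libraries 1 to 3. These levels rest on 601, 523 and 540 reads in WT and on 33, 8 and 19 reads in Lama4-/-. The groups were far apart and the WT libraries nearly equal, and Lama4 fell by 4.75 ± 0.28 on the log2 scale (standard error, SE; edgeR adjusted p = 0.00155), 27.0-fold lower. Over all settings tried, its adjusted p lay between 1.50e-75 and 0.0337.

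Library depth ran from 32055487 to 39818156 reads counted in genes, and reads of mitochondrially encoded genes made up 3.51% to 4.12%. Libraries of the same group had a chi-square of 8.90 to 25.1 per degree of freedom over genes, above sampling noise, so none is a duplicate of another. Markers present in every brain library gave summed levels of 5739 to 6701 CPM for pan-neuronal genes, 4426 to 5513 CPM for astrocyte genes and 397 to 473 CPM for homeostatic microglia. The 8 lymphocyte markers with an entry in the table summed to under 1 CPM, between 0.332 and 0.772 CPM, and none passed the filter on low counts. The libraries did not group by genotype. On the first principal component of the 6 libraries (41.2% of the variance) WT libraries 1 to 3 lay at -16.8, 10.4 and -12.8 and Lama4-/- libraries 1 to 3 at 10.0, 17.5 and -8.30. WT library 2 thus lay beside Lama4-/- libraries 1 and 2, and Lama4-/- library 3 beside WT libraries 1 and 3. Of the 56 list medians given or plotted below, 25 turned sign when some 1 library was left out, among them those of general neuron, astrocyte, homeostatic microglia, smooth muscle and laminin genes, which all lay near 0.

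Across all genes, 1 of 15208 was called by edgeR (0.00658%), and 531 (3.49%) had an unadjusted p under 0.05, 241 of them higher in Lama4-/- (1.58%) and 290 lower (1.91%). For 1205 genes (7.92%) every library of one group lay above every library of the other, with 577 higher (3.79%) and 628 lower (4.13%). DESeq2, run as an alternative, called 20 of 17937 genes (0.112%), 6 of them higher (0.0335%) and 14 lower (0.0781%), and limma voom called Lama4 only. A fit of all 12 libraries called 3 of 15351 (0.0195%), Lama4, Ddo and Il1b. The 20 genes were Lama4, Nr4a1, Ddo, Il1b, Trib2, Dusp1, Ccdc3, Dusp4, Egr1, Chil3, Egr4, Inhba, Npas4, Egr2, Sele, Vgf, Amd1, Dusp6, Lyz2 and Il1rn. In the authors' deposited table an adjusted p under 0.05 was given for 5 genes, Lama4, Ddo, Il1b, Amd1 and Chil3. The authors' deposited lists hold 154 higher and 59 lower genes, all with an unadjusted Wald p under 0.05. Their folds (ratios) are at least 1.30 in the higher list and at most 0.706 in the lower list, so these counts also reflect fold size. Genes named below apart from Lama4 were therefore not called by edgeR, and their differences are given as values with an unadjusted p. The smallest adjusted p among them was 0.133, for Ddo and Il1b.

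**Figure D1:**
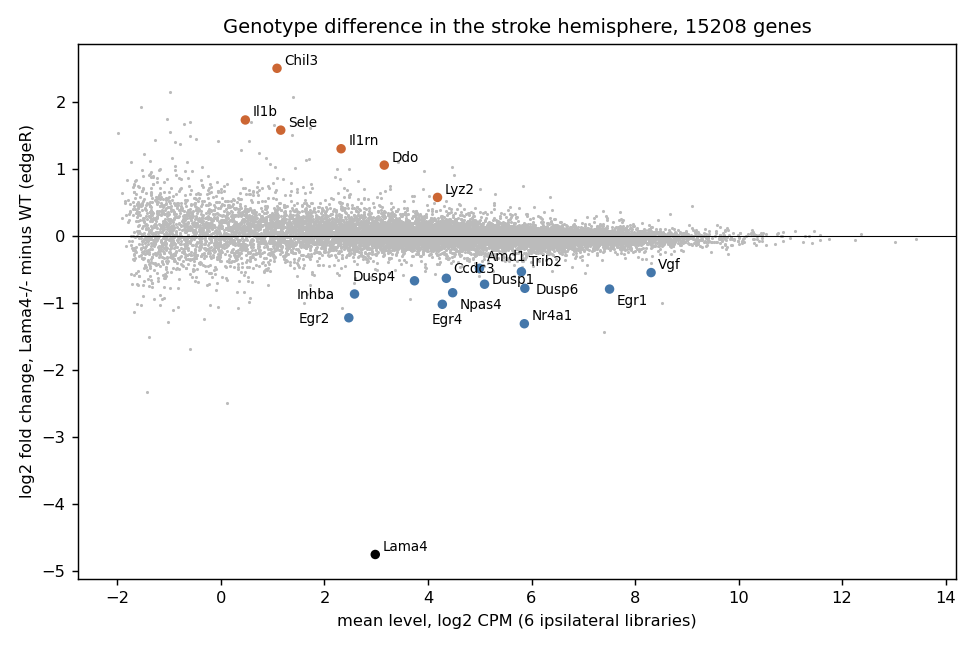
Log2 fold change (Lama4-/- minus WT, ipsilateral) against the mean level in log2 CPM for the 15208 genes tested (grey points). The 20 genes that DESeq2 called are named, in black for Lama4, orange for higher and blue for lower in Lama4-/-; Lama4 lies alone at -4.75, and of the 6 higher genes Ddo and Lyz2 have the highest levels.

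The immediate early genes stood lower in Lama4-/-. Of the 16 tested, edgeR called none and 11 had an unadjusted p under 0.05, all lower, beside 1.91% of all genes. Like all lists here, this one was chosen with earlier results of these data known and was not tested as a set. For 10 of the 16 the groups did not overlap, all 10 lower, beside 4.13% of all genes. All 16 log2 fold changes were below 0, from -1.44 to -0.02, with a median of -0.58 beside a median of -0.000479 over all genes. DESeq2 called 6 of them, beside 0.0781% of its genes called lower. None of the 6 is among the 5 genes with an adjusted p under 0.05 in the authors' deposited table. The authors' list of lower genes holds Nr4a1, Dusp1 and Egr4 of the 6, but not Egr1, Egr2 or Npas4. The summed level of the list was 1426, 1052 and 1095 CPM in WT and 799, 790 and 675 CPM in Lama4-/-, so every WT library lay above every Lama4-/- library. The median stayed between -0.65 and -0.54 when any 1 library was left out, and the count with a p under 0.05 was then 9 to 12, but in a fit of all 12 libraries only 5 members had a p under 0.05. The same list was lower in the same-numbered contralateral hemispheres, with 16 of 16 below 0 and a median of -1.20, which is no separate evidence. In those hemispheres 2 of 14958 genes were called (0.0134%), 9.51% had an unadjusted p under 0.05, and groups did not overlap for 8.25% lower and 7.9% higher. In whole tissue, fewer cells of a type and less RNA per cell cannot be told apart.

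Nr4a1, an orphan nuclear receptor induced by activity and by inflammation (chromosome 15, 101254269 to 101274795, plus strand, mm10), had the smallest p of the list. Its level was 107, 64.2 and 76.9 CPM in the WT libraries and 34.1, 33.3 and 32.7 CPM in the Lama4-/- libraries. The Lama4-/- libraries were nearly equal and lay below the lowest WT library, WT 2. The log2 fold change was -1.31 ± 0.17 (SE, unadjusted p = 7.33e-05, edgeR adjusted p = 0.279), and edgeR called Nr4a1 when WT library 1 or WT library 2 was left out. Contralateral levels were 146, 65.4 and 126 CPM in WT and 59.9, 25.2 and 29.2 CPM in Lama4-/-, again without overlap.

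Egr2, a zinc-finger factor of the early growth response family, stood at 8.76, 5.54 and 8.65 CPM in WT and at 2.51, 4.70 and 2.65 CPM in Lama4-/-. WT library 2 and Lama4-/- library 2 came closest to each other, and the groups did not overlap (log2 fold change -1.22 ± 0.28, SE, unadjusted p = 0.00212). Npas4, a factor of active neurons, stood at 32.8, 25.8 and 26.9 CPM in WT and at 17.7, 11.1 and 18.8 CPM in Lama4-/-, with a log2 fold change of -0.85 ± 0.19 (unadjusted p = 0.00238). Dusp1, a dual-specificity phosphatase of MAP kinases, stood at 47.0, 44.1 and 36.0 CPM in WT and at 29.0, 26.9 and 21.1 CPM in Lama4-/-. All 3 Lama4-/- libraries of each of these genes lay below all 3 WT libraries. For Dusp1 the log2 fold change was -0.72 ± 0.14 (unadjusted p = 0.000675), and its exons overlap those of Ergic1 on the other strand, whose reads may be shared because strandedness is not given in the sources used here.

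Arc, a synaptic protein made on demand in active dendrites, had the largest difference of the list at -1.44 ± 0.38 (unadjusted p = 0.00876). It stood at 369, 162 and 209 CPM in WT and at 117, 59.1 and 96.2 CPM in Lama4-/-, so WT library 1 stood well above the others, and without it the value was -1.03. Egr1 stood at 290, 197 and 205 CPM in WT and at 140, 153 and 107 CPM in Lama4-/- (log2 fold change -0.79 ± 0.18, unadjusted p = 0.00326), and Egr4 had a log2 fold change of -1.02 ± 0.24 (unadjusted p = 0.00397). Arc, Egr1 and Egr4 were chosen for naming after their values were seen. Btg2, an antiproliferative early gene, had a log2 fold change of -0.45 ± 0.11, Junb, an AP-1 partner, one of -0.43 ± 0.15 and Fosb one of -0.56 ± 0.21. Egr3, of the same family as Egr1, was at -0.60 ± 0.21 and Nr4a3, a relative of Nr4a1, at -0.50 ± 0.26, with overlapping groups in both genes. Fos, the founding member of the class, stood at 70.0, 73.8 and 63.3 CPM in WT and at 62.1, 78.7 and 32.7 CPM in Lama4-/-, with overlapping groups, and its difference of -0.26 ± 0.30 was 0.026 without Lama4-/- library 3. Jun was at -0.02 ± 0.10.

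Promoters of 3 of these genes are shown because the members stood lower together. They are the 250 bases before and 50 bases after a RefSeq transcript start (GRCm38.p6), read 5′ to 3′ along the gene, with capitals marking a cyclic AMP response element (CRE, letters TGACGTCA) in Dusp1 and a serum response element core (CArG box) in Egr2; the Nr4a1 window holds neither. They lie at chr15:101266596-101266895 (plus strand, Nr4a1), chr17:26508423-26508722 (minus strand, Dusp1) and chr10:67537619-67537918 (plus strand, 1 of several Egr2 starts).
Nr4a1: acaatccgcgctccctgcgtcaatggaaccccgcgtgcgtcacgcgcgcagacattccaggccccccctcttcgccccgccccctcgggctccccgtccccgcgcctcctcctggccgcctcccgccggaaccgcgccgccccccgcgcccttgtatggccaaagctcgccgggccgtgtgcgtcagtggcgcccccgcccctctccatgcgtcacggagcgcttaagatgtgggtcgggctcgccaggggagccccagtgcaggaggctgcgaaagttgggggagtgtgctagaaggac
Dusp1: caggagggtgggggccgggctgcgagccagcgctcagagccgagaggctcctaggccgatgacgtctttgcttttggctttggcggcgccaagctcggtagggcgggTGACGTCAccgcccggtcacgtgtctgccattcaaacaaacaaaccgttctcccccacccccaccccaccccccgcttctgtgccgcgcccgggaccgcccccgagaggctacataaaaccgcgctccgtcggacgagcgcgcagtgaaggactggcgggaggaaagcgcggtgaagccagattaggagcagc
Egr2: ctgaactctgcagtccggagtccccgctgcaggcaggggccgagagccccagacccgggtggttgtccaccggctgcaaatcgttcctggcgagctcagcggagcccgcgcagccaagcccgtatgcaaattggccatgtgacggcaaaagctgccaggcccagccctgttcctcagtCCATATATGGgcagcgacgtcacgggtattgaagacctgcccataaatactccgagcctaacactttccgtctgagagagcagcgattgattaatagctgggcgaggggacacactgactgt
Searched on both strands, a CRE was found for 2 of the 12 immediate early genes, of 16 tested, that matched the RefSeq promoters and for 2.03% of the 27025 genes with a promoter there. A CArG box was found for 1 of the 12 genes and for 1.81% of all. An AP-1 site (TGACTCA or TGAGTCA) was found for 0 of 12 genes and for 5.95% of all, an interferon-stimulated response element for 1 of 12 and for 3.99%, and a heat shock element for 0 of 12 and for 0.662%. These are matches of letters within a short window and say nothing of whether a factor binds there.

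Further single genes that act on MAP kinase signalling are given for their values, and no list of such genes was drawn up. Dusp4 and Spred3 were named by a rule that takes genes of small p whose groups do not overlap. Dusp4, a nuclear MAP kinase phosphatase, stood at 18.8, 15.4 and 14.7 CPM in WT and at 10.2, 9.87 and 10.8 CPM in Lama4-/- (log2 fold change -0.67 ± 0.11, SE, unadjusted p = 0.000244). Dusp6, a cytoplasmic ERK phosphatase named after its values were seen, stood at 92.6, 54.1 and 74.9 CPM in WT and at 52.6, 37.1 and 39.3 CPM in Lama4-/- (-0.78 ± 0.21, unadjusted p = 0.00837). Spred3, an inhibitor of Ras signalling whose exons overlap Ggn, had a log2 fold change of -0.29 ± 0.07 (unadjusted p = 0.0019). For Dusp4 and Spred3 separate groups were thus a condition of naming. For Dusp6 as well the Lama4-/- libraries all lay below the WT libraries, as they did for 4.13% of all genes. Fosl2, an AP-1 factor of injured tissue, was at -0.38 ± 0.10. It was the only one of 8 injury-induced AP-1 and stress factors with an unadjusted p under 0.05, beside 1.91% of all genes lower. The median of that list was 0.10, but -0.12 without WT library 1 and 0.39 without WT library 2.

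Of 8 neurotrophic and regeneration genes tested, edgeR called none, and 4 stood lower and 1 higher with an unadjusted p under 0.05, beside 1.91% and 1.58% of all genes. The log2 fold changes of 6 were below 0 and of 2 above, with a median of -0.43 that was -0.27 without Lama4-/- library 2. Inhba, a subunit of activin A, stood at 8.71, 5.97 and 8.21 CPM in WT and at 4.31, 4.19 and 4.07 CPM in Lama4-/- (-0.87 ± 0.16, SE, unadjusted p = 0.000455). Vgf, a neuropeptide precursor, stood at 421, 379 and 330 CPM in WT and at 265, 218 and 291 CPM in Lama4-/- (-0.55 ± 0.12, unadjusted p = 0.00191). Bdnf, a neurotrophin, stood at 47.7, 39.5 and 47.2 CPM in WT and at 36.2, 25.5 and 31.5 CPM in Lama4-/- (-0.53 ± 0.13, unadjusted p = 0.00356), and its exons overlap an antisense transcript. None of the 3 genes had overlapping groups. Sox11, a factor of growing neurons, was at -0.33 ± 0.11. Gal, the galanin precursor, was the higher member at 0.46 ± 0.18, and Sprr1a, a gene of regenerating neurons, was at 0.46 ± 0.42 with overlapping groups.

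General neuron markers lay near 0. Pan-neuronal markers had a median log2 fold change of -0.05 over 8 genes and striatal neuron markers one of -0.04 over 10, with 0 members at an unadjusted p under 0.05 in either list. Cortical excitatory neuron markers were all below 0, 7 of 7, with a median of -0.20, and Fezf2, a factor of deep-layer neurons, had a p under 0.05 (-0.23 ± 0.10, unadjusted p = 0.0418), although its value was -0.12 without WT library 2 and the list median -0.12 without Lama4-/- library 2. The 8 GABAergic interneuron markers had 3 members above 0 and a median of -0.04, and the 1 with an unadjusted p under 0.05 was the neuropeptide gene Vip at -0.37 ± 0.15 (unadjusted p = 0.0401), which was -0.22 without Lama4-/- library 2. For the cortical and GABAergic lists alike, the share of all genes lower at that p was 1.91%. Of 12 circadian clock genes 2 had an unadjusted p under 0.05, beside 1.91% of all genes lower. They were the repressors Per2 at -0.59 ± 0.16 and Cry2 at -0.26 ± 0.07. The median of the clock list was -0.05, and the hour at which brains were taken is not given in the sources used here.

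**Figure D2:**
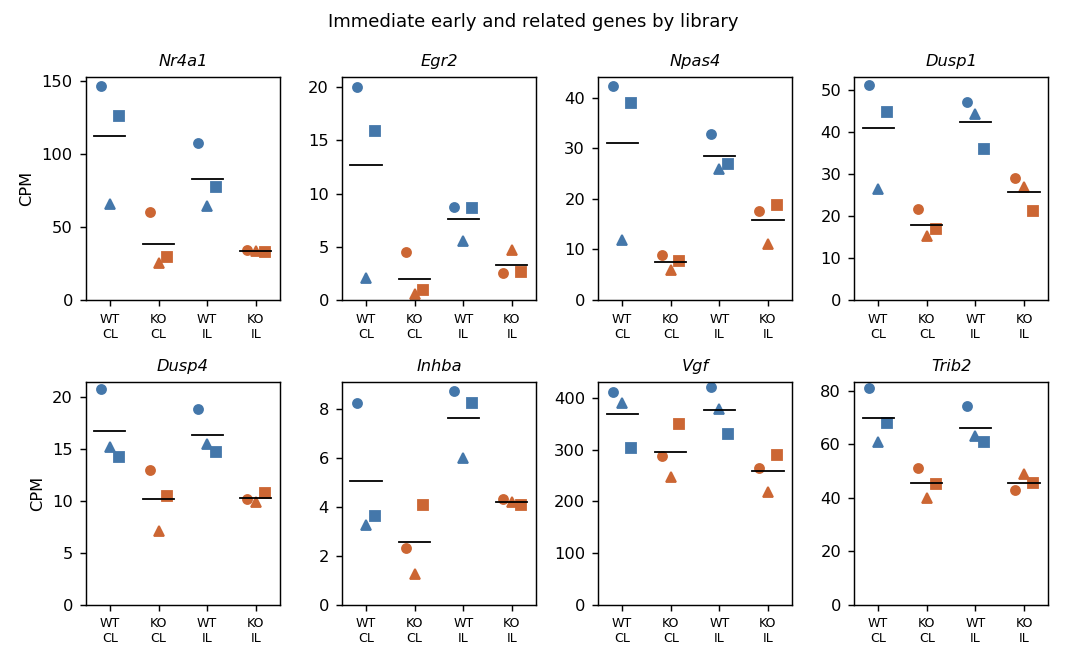
Levels in CPM (from 0) of 8 activity-related genes in each library, contralateral (CL) and ipsilateral (IL), WT in blue and Lama4-/- (KO) in orange; circles, triangles and squares are replicates 1, 2 and 3 and bars are group means. In the ipsilateral hemisphere all 3 Lama4-/- libraries lie below all 3 WT libraries for each gene, and in the contralateral hemisphere WT replicate 2 often lies near the Lama4-/- libraries. Levels were normalized separately within each hemisphere.

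Inflammatory mediators stood higher in Lama4-/-. All 12 cytokine genes tested had log2 fold changes above 0, with a median of 0.69. Of the 12, 5 had an unadjusted p under 0.05, beside 1.58% of all genes higher. edgeR called none and DESeq2 called 2, beside 0.0335% of its genes called higher. All 11 chemokines tested were above 0 as well, with a median of 0.58, and 4 had an unadjusted p under 0.05. Of the 13 listed only these 11 passed the filter on low counts, which they could pass through the group where they are high. The chemokine counts thus describe the genes and do not measure an increase. Over all 13 the summed level was 47.6, 67.0 and 53.6 CPM in WT and 82.5, 90.7 and 72.7 CPM in Lama4-/-. The groups did not overlap for 3 cytokines and 3 chemokines, beside 3.79% of all genes. Summed levels of the cytokine list were 95.7, 138 and 104 CPM in WT and 156, 189 and 129 CPM in Lama4-/-, so WT library 2 lay above Lama4-/- library 3. The cytokine count was 3 without WT library 1, without WT library 3 or without Lama4-/- library 2, and the median was 1.01 without WT library 2 and 0.37 without Lama4-/- library 2. For chemokines the count was 2 without WT library 1 or WT library 3 and 6 without WT library 2.

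Il1b, the proinflammatory cytokine interleukin 1 beta (chromosome 2, 129364570 to 129371139, minus strand, mm10), had the smallest p of the inflammatory genes. It stood at 0.658, 0.577 and 0.608 CPM in WT and at 2.19, 2.25 and 1.70 CPM in Lama4-/-, on 26, 20 and 22 reads against 88, 80 and 54 reads. The WT libraries were tight and every Lama4-/- library stood well above them. The log2 fold change was 1.73 ± 0.21 (SE, unadjusted p = 2.62e-05, edgeR adjusted p = 0.133), 3.32-fold, and ran from 1.66 to 1.84 with any 1 library left out. It was called in DESeq2 and in the fit of all 12 libraries, with adjusted p from 0.000533 to 0.897 over all settings. Contralateral levels were low in both genotypes, 0.424, 0.294 and 0.228 CPM in WT and 0.127, 0.208 and 0.268 CPM in Lama4-/-. The difference between hemispheres in the genotype effect was 2.38 ± 0.44 (unadjusted p = 9.24e-05, edgeR adjusted p = 1.00), the smallest unadjusted p of that test. An antisense gene, Il1bos, overlaps its exons.

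Il1rn, the natural antagonist of the interleukin 1 receptor, stood at 2.43, 3.90 and 2.27 CPM in WT and at 8.59, 4.02 and 8.54 CPM in Lama4-/-. Lama4-/- library 2 lay only just above WT library 2 (log2 fold change 1.30 ± 0.33, SE, unadjusted p = 0.00453). Tnf, a cytokine named after its values were seen, stood at 0.709, 0.952 and 1.05 CPM in WT and at 0.821, 1.88 and 2.21 CPM in Lama4-/- (0.84 ± 0.37, unadjusted p = 0.048). Il6 varied most within WT, at 0.658, 4.30 and 0.885 CPM against 3.36, 6.41 and 2.90 CPM (1.13 ± 0.73, unadjusted p = 0.17), and was at 2.45 without WT library 2. Csf1, a growth factor of microglia and macrophages, stood at 53.2, 56.0 and 52.7 CPM in WT and at 75.5, 64.2 and 58.5 CPM in Lama4-/- (0.29 ± 0.09, unadjusted p = 0.0133), with a value of 0.19 without Lama4-/- library 1.

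Ccl7, a chemokine that draws monocytes, stood at 2.08, 2.28 and 2.32 CPM in WT and at 3.31, 4.70 and 3.12 CPM in Lama4-/-, with no overlap (log2 fold change 0.74 ± 0.19, SE, unadjusted p = 0.00454). Ccl3, a further monocyte attractant, stood at 3.47, 5.02 and 4.75 CPM in WT and at 6.94, 5.65 and 7.25 CPM in Lama4-/- (0.58 ± 0.17, unadjusted p = 0.00833). Ccl2, the main ligand of the monocyte receptor Ccr2, stood at 5.37, 10.2 and 6.0 CPM in WT and at 9.81, 16.6 and 9.71 CPM in Lama4-/-. Its groups overlapped through WT library 2 (0.75 ± 0.30, unadjusted p = 0.0422), and the value was 0.45 without Lama4-/- library 2. Cxcl10, an interferon-induced chemokine, was at 0.01 ± 0.12, and interferon-stimulated genes as a list had a median of 0.17 with 0 of 14 at an unadjusted p under 0.05. Feedback genes of NF-kappaB had a median of 0.18 and 0 of 8.

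All 7 leukocyte adhesion receptors of endothelium tested had log2 fold changes above 0, with a median of 0.24, and 3, Sele, Icam1 and Selp, had an unadjusted p under 0.05, beside 1.58% of all genes higher. The median was 0.04 without Lama4-/- library 2, and the count was 2 without WT library 1, WT library 3, Lama4-/- library 2 or Lama4-/- library 3. Sele, the E-selectin that cytokine-activated endothelium displays to slow leukocytes (chromosome 1, 164048234 to 164057677, plus strand, mm10), stood at 0.962, 1.18 and 1.16 CPM in WT and at 1.72, 3.88 and 4.35 CPM in Lama4-/-. Lama4-/- library 1 lay nearest the WT libraries but above all 3 (log2 fold change 1.58 ± 0.34, SE, unadjusted p = 0.00148). Icam1, the ligand of leukocyte integrins, stood at 11.2, 15.6 and 12.1 CPM in WT and at 19.3, 23.5 and 15.9 CPM in Lama4-/- (0.59 ± 0.17, unadjusted p = 0.00732). Selp, the stored selectin of endothelium and platelets, stood at 1.16, 2.80 and 1.35 CPM in WT and at 2.27, 5.62 and 2.84 CPM in Lama4-/-, with overlap (1.02 ± 0.44, unadjusted p = 0.0494), and its value was 0.53 without Lama4-/- library 2. Vcam1, the ligand of monocyte integrins, was at 0.13 ± 0.10 with overlapping groups. Icam1, Vcam1 and Selp overlap antisense genes.

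**Figure D3:**
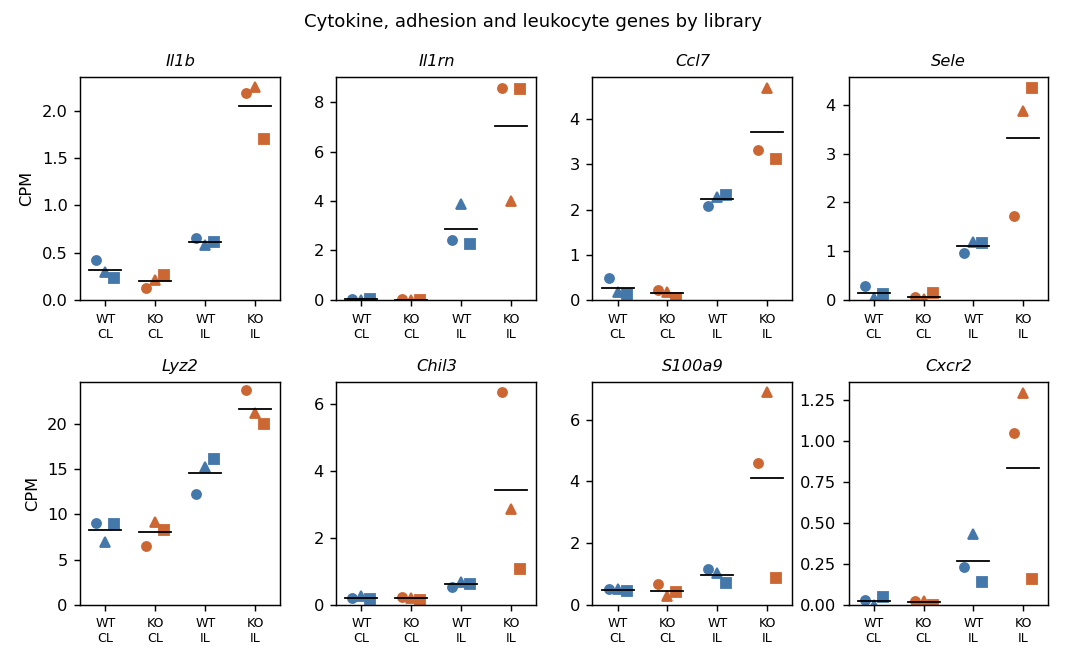
Levels in CPM (from 0) of 8 cytokine, adhesion and leukocyte genes in each library, drawn as in the plot of activity-related genes. Il1b, Ccl7, Sele and Lyz2 lie above all WT libraries in all 3 Lama4-/- ipsilateral libraries, whereas S100a9 and Cxcr2 are high in Lama4-/- replicates 1 and 2 and near WT in replicate 3.

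Markers of neutrophils and of monocytes and macrophages were high in 2 of the 3 Lama4-/- libraries. All 6 neutrophil markers tested were above 0, with a median of 1.54, and 3 had an unadjusted p under 0.05. All 7 monocyte and macrophage markers tested were above 0, with a median of 1.24, and 5 had such a p. The share of all genes higher at that p was 1.58%. Only 6 of 9 and 7 of 9 listed markers passed the filter on low counts, which they could pass through the group where they are high, so these counts describe the genes and do not measure an increase. Over all 9 listed neutrophil markers the summed level was 8.56, 9.73 and 7.66 CPM in WT and 18.7, 24.8 and 8.04 CPM in Lama4-/-. Over all 9 monocyte and macrophage markers it was 32.7, 56.4 and 40.5 CPM in WT and 83.3, 66.5 and 46.5 CPM in Lama4-/-. Lama4-/- library 3 was within the WT range in both sums. The 3 red blood cell genes with an entry summed to 3.42, 3.43 and 4.95 CPM in WT and to 4.58, 5.51 and 3.37 CPM in Lama4-/-. Leukocytes in the tissue and in blood left after perfusion cannot be told apart here, and the part of such blood was not tested. Without Lama4-/- library 2 the neutrophil count was 0 and the median 0.90, and without Lama4-/- library 3 they were 5 and 2.02; the count was 1 without Lama4-/- library 1 or WT library 3. For the monocyte list the count was 2 without WT library 1 or Lama4-/- library 1 and 3 without Lama4-/- library 2.

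S100a9, an alarmin of neutrophils, stood at 1.16, 1.04 and 0.719 CPM in WT and at 4.60, 6.89 and 0.851 CPM in Lama4-/- (log2 fold change 2.08 ± 0.69, SE, unadjusted p = 0.0209). Cxcr2, the neutrophil receptor for chemokines, stood at 0.228, 0.433 and 0.138 CPM in WT and at 1.05, 1.29 and 0.158 CPM in Lama4-/-, on 5 to 46 reads a library. In both genes Lama4-/- library 3 lay inside the WT range. Csf3r, the receptor for granulocyte colony-stimulating factor, stood at 5.12, 4.62 and 5.33 CPM in WT and at 6.57, 7.73 and 5.80 CPM in Lama4-/- and was the only neutrophil marker without overlap (0.42 ± 0.14, unadjusted p = 0.0168). Lyz2, lysozyme of myeloid cells, stood at 12.3, 15.3 and 16.1 CPM in WT and at 23.8, 21.2 and 20.0 CPM in Lama4-/- (0.58 ± 0.12, unadjusted p = 0.000956), although reads of its near copy Lyz1 may be split with it. Chil3, a chitinase-like protein secreted by macrophages and neutrophils, ranged widely, at 0.532, 0.693 and 0.608 CPM in WT and at 6.35, 2.87 and 1.07 CPM in Lama4-/-. Its log2 fold change of 2.50 ± 0.63 (unadjusted p = 0.00517) was 1.70 without Lama4-/- library 1. Ccr2, the receptor of inflammatory monocytes, stood at 1.19, 0.433 and 1.22 CPM in WT and at 3.11, 2.76 and 0.851 CPM in Lama4-/- (1.24 ± 0.52, unadjusted p = 0.0454). F10, coagulation factor X, which monocytes and macrophages make, stood at 0.101, 0.0289 and 0.359 CPM in WT and at 1.19, 0.675 and 0.284 CPM in Lama4-/-, with overlap.

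Resident myeloid cells differed less. Homeostatic microglia markers had a median of -0.04 over 10 genes, with 0 at an unadjusted p under 0.05. Border-associated macrophage markers had a median of 0.02 over 9 genes, and 1 had an unadjusted p under 0.05, beside 1.91% of all genes lower. It was Cbr2, at -0.48 ± 0.19 without overlap (unadjusted p = 0.0372). Among 12 activated microglia markers Clec7a, a fungal glucan receptor of reactive microglia, stood at 1.27, 1.41 and 1.69 CPM in WT and at 2.64, 2.33 and 3.03 CPM in Lama4-/- with no overlap (log2 fold change 0.87 ± 0.19, SE, unadjusted p = 0.00163). Gpnmb, a glycoprotein of lipid-laden phagocytes, went the other way at -0.39 ± 0.17 (unadjusted p = 0.0485), and was at -0.64 without Lama4-/- library 1. The list as a whole had a median of 0.12. MHC and antigen processing genes are not a list of resident cells. All 11 were above 0, with a median of 0.35, and 2 had an unadjusted p under 0.05, beside 1.58% of all genes higher. That count was 10 without Lama4-/- library 3 and 1 without Lama4-/- library 1 or 2. Their summed level was 198, 227 and 204 CPM in WT and 284, 269 and 218 CPM in Lama4-/-, so Lama4-/- library 3 lay within the WT range. The list was led by the class I gene H2-K1 at 0.43 ± 0.13 and the class II gene H2-Aa at 0.75 ± 0.28. Reads of near-identical H2 genes may be split.

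Whether the genotype effect differs between hemispheres was tested on all 12 libraries. edgeR and DESeq2 each called 0 genes, and 244 of 15351 (1.59%) had an unadjusted p under 0.05 in edgeR. For the inflammatory genes the difference (ipsilateral minus contralateral effect, log2) was 2.78 ± 0.95 for Sele (unadjusted p = 0.0113), 0.63 ± 0.21 for Lyz2 (unadjusted p = 0.00915), 0.87 ± 0.37 for Icam1 (unadjusted p = 0.0365) and 2.18 ± 0.94 for S100a9 (unadjusted p = 0.0385), each with an adjusted p of 1.00. The ipsilateral log2 fold change of Sele was 1.58, so its difference also rests on the contralateral libraries. Of the 7 adhesion receptors listed, only 5 passed the low-count filter there. For the activity genes the difference was 0.24 ± 0.51 for Nr4a1 (unadjusted p = 0.645), 0.46 ± 0.31 for Dusp1 (unadjusted p = 0.16) and 2.19 ± 0.88 for Fos (unadjusted p = 0.0322). That fit treats same-numbered hemispheres as independent, although their deviations from the group means were correlated at r = 0.141 to 0.421. With the pool as a replicate block edgeR also called 0 genes, and 665 had an unadjusted p under 0.05. The blocked difference was 2.39 ± 0.46 for Il1b (unadjusted p = 0.000406), 2.76 ± 0.82 for Sele (unadjusted p = 0.00735) and 0.29 ± 0.33 for Nr4a1 (unadjusted p = 0.401). A smaller p than that of Il1b was found for the chemokine gene Ccl9, at 1.37 ± 0.19 (unadjusted p = 2.92e-05, edgeR adjusted p = 0.449). The ipsilateral log2 fold change of Ccl9 was 0.97 ± 0.38 (unadjusted p = 0.0422), with overlapping groups. Neither fit shows a gene to be particular to the stroke hemisphere.

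The chromosomal neighbourhood of Lama4 held the gene with the smallest p after Lama4 itself. Ddo, D-aspartate oxidase, which breaks down D-aspartate and N-methyl-D-aspartate, lies 1520 kb from Lama4 (chromosome 10, 40630011 to 40681847, plus strand, mm10). It stood at 5.62, 6.18 and 5.47 CPM in WT and at 10.1, 13.3 and 12.6 CPM in Lama4-/-. Every Lama4-/- library stood well above every WT library, the log2 fold change was 1.06 ± 0.13 (SE, unadjusted p = 2.28e-05, edgeR adjusted p = 0.133), 2.08-fold, and the value stayed between 0.98 and 1.17 with any 1 library left out. Its contralateral value was 0.99 ± 0.13, with 7.43, 5.77 and 5.69 CPM in WT and 13.7, 11.5 and 12.3 CPM in Lama4-/-. Over all settings its ipsilateral adjusted p lay between 1.23e-07 and 0.897. Amd1, the adenosylmethionine decarboxylase of polyamine synthesis, lies 1177 kb from Lama4 and stood at 37.6, 33.2 and 40.5 CPM in WT and at 26.4, 24.5 and 28.8 CPM in Lama4-/- (-0.48 ± 0.10, unadjusted p = 0.000765; contralateral -0.42 ± 0.08), with near-identical copies in the genome that may take its reads. Of 14 listed neighbours, up to 1964 kb away, these were the 2 with an unadjusted p under 0.05, beside 3.49% of all genes. The median over the 14 was -0.02. Fyn, a Src-family kinase 259 kb away, was at -0.03 ± 0.06, and Tube1, a tubulin gene 24 kb away, at -0.01 ± 0.16.

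The partners of Lama4 in the basement membrane showed little difference. Of the 10 other laminin chains none was called, 1 had an unadjusted p under 0.05, beside 1.58% of all genes higher, and the median was 0.04. That gene was Lama2, the alpha 2 chain of mural and astrocyte basement membranes, at 17.8, 18.4 and 15.3 CPM in WT and 20.2, 22.0 and 21.2 CPM in Lama4-/-, with no overlap (log2 fold change 0.30 ± 0.09, SE, unadjusted p = 0.0101; contralateral 0.19 ± 0.08). Lama5, the alpha 5 chain that endothelium deposits beside alpha 4, stood at 25.3, 27.2 and 21.3 CPM in WT and at 26.6, 38.8 and 25.8 CPM in Lama4-/-. Lama4-/- library 2 alone lay outside the WT range in the higher direction, and the log2 fold change of 0.31 ± 0.17 (unadjusted p = 0.106) was 0.09 without it. Lamc1, the gamma 1 chain shared by these laminins, was at 0.18 ± 0.12 and Lamb1, the beta 1 chain, at -0.04 ± 0.11. Of 12 other basement membrane components 0 had a p under 0.05, with a median of 0.17 and values of 0.27 ± 0.23 for the collagen IV gene Col4a1 and 0.34 ± 0.23 for Hspg2, perlecan. Without Lama4-/- library 2 these were 0.07, 0.14 and 0.11. Laminin receptors had a median of 0.09 over 11 genes, with 0 at a p under 0.05.

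All 15 pan-endothelial markers were above 0, from 0.12 to 0.49, with a median of 0.28, and 2 had an unadjusted p under 0.05, the receptor phosphatase gene Ptprb at 0.26 ± 0.08 and the receptor kinase gene Tie1 at 0.32 ± 0.14, which was 0.16 without Lama4-/- library 2. The share of all genes higher at that p was 1.58%. Their summed level was 428, 565 and 430 CPM in WT and 501, 676 and 525 CPM in Lama4-/-, so WT library 2 lay above Lama4-/- libraries 1 and 3. The count was 9 without WT library 2, 6 without Lama4-/- library 1, 1 without WT library 1 or Lama4-/- library 2 and 0 without WT library 3; the median was 0.13 without Lama4-/- library 2 and 0.42 without WT library 2. Clec14a, an endothelial lectin outside the list, stood at 5.32, 6.75 and 5.20 CPM in WT and at 7.89, 9.45 and 7.97 CPM in Lama4-/- (log2 fold change 0.55 ± 0.14, SE, unadjusted p = 0.00386). It was named by a rule that asks for groups that do not overlap.

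By vessel zone, arterial markers had a median of 0.24 over 14 genes, venous markers one of 0.13 over 9 and capillary markers one of 0.06 over 11. The unadjusted p was under 0.05 for 1 arterial, 2 venous and 0 capillary markers, beside 1.58% of all genes higher. Below 0 were 2 arterial, 3 venous and 2 capillary markers. The arterial median was 0.14 and the venous one 0.07 without Lama4-/- library 2, and the venous count was 1 without that library, Lama4-/- library 1, WT library 1 or WT library 3. The arterial gene was Gkn3, a secreted gastrokine of brain arteries, at 0.228, 0.289 and 0.608 CPM in WT and 0.548, 0.787 and 1.10 CPM in Lama4-/- (1.10 ± 0.42, unadjusted p = 0.0293), and Gja4, an arterial connexin, was at 0.42 ± 0.22 (contralateral 0.64 ± 0.17) and at 0.21 without WT library 3. The venous genes were Vwf, von Willebrand factor, at 0.38 ± 0.15, with overlap and at 0.25 without Lama4-/- library 1, and the lysosomal protease gene Ctsc at 0.21 ± 0.07, without. Slc16a1, a lactate transporter of capillaries, was at 0.09 ± 0.08 and Cldn5, the main claudin of the barrier, at 0.24 ± 0.12. Of 10 angiogenic and tip cell factors 4 were below 0, the median was 0.13, and 2 had an unadjusted p under 0.05, beside 1.58% of all genes higher. These were Esm1, a proteoglycan gene of tip cells, at 1.02 ± 0.39 (unadjusted p = 0.0304) and Apln, which encodes apelin, at 0.44 ± 0.16 (unadjusted p = 0.0262). Their groups overlapped, their values were 0.66 and 0.25 without Lama4-/- library 2, and the count was 0 without that library, WT library 1 or WT library 3.

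Cells around the vessels gave no single direction. Of 10 pericyte markers 8 were above 0 and 2 below, with a median of 0.08, and 2 had an unadjusted p under 0.05, beside 1.58% of all genes higher; the count was 1 without WT library 1 or Lama4-/- library 2. Pdgfrb, the receptor that keeps pericytes on vessels, was at 0.35 ± 0.11 (unadjusted p = 0.0122; contralateral 0.25 ± 0.08) and Kcnj8, a potassium channel gene, at 0.49 ± 0.16 (unadjusted p = 0.0138; contralateral 0.56 ± 0.14). The pericyte markers Rgs5 and Higd1b were at 0.10 ± 0.15 and -0.12 ± 0.22. Of 8 smooth muscle markers 5 were below 0, with a median of -0.05, and 1 had an unadjusted p under 0.05, beside 1.91% of all genes lower. It was Mylk, myosin light chain kinase, at -0.27 ± 0.08 without overlap (unadjusted p = 0.00982). An antisense gene overlaps its exons. Of 8 fibroblast markers 4 were below 0 and 0 had an unadjusted p under 0.05, with a median of 0.01. Among 8 flow and YAP target genes, with a median of 0.06 and 0 at an unadjusted p under 0.05, Klf2, a factor of flow-exposed endothelium, was at -0.33 ± 0.15, with the Lama4-/- libraries all below the WT libraries.

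Of 15 matrix proteases and inhibitors tested 12 were above 0 and 3 below, with a median of 0.28, and 2 had an unadjusted p under 0.05, beside 1.58% of all genes higher. The median was 0.08 without Lama4-/- library 2, and the count was 1 without WT library 1, WT library 3 or Lama4-/- library 2, 4 without WT library 2 and 5 without Lama4-/- library 3. Summed over the 16 listed, the level was 766, 989 and 790 CPM in WT and 875, 980 and 788 CPM in Lama4-/-, so the groups overlapped. Mmp12, a macrophage elastase whose exons overlap Mmp1b, stood at 2.46, 5.11 and 1.85 CPM in WT and at 6.57, 6.72 and 5.55 CPM in Lama4-/-, without overlap (log2 fold change 1.01 ± 0.33, SE, unadjusted p = 0.0173), and was at 1.54 without WT library 2. Mmp2, a gelatinase of many tissues, was at -0.25 ± 0.20. Mmp9, the gelatinase of neutrophils and endothelium, stood at 2.91, 2.42 and 2.21 CPM in WT and at 3.51, 5.57 and 2.80 CPM in Lama4-/-, and its value of 0.65 ± 0.26 was 0.33 without Lama4-/- library 2. All 8 choroid plexus markers were above 0, with 2 at an unadjusted p under 0.05, beside 1.58% of all genes higher. That count was 0 without WT library 1 or Lama4-/- library 2 and 5 without WT library 2. Their median was 0.38, with a summed level of 441, 669 and 434 CPM in WT and 599, 822 and 662 CPM in Lama4-/-. Ttr, transthyretin, which dominates that sum, stood at 398, 608 and 387 CPM in WT and at 547, 747 and 600 CPM in Lama4-/-. WT library 2 lay in the Lama4-/- range, and the part of choroid plexus tissue in other results was not tested.

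All 10 myelin genes were above 0, with a median of 0.11 that was 0.04 without Lama4-/- library 2. An unadjusted p under 0.05 was found for 2, Opalin and Mog, proteins of the myelin sheath, beside 1.58% of all genes higher. That count was 1 without WT library 3, Lama4-/- library 1 or Lama4-/- library 2. Opalin stood at 14.5, 16.1 and 13.3 CPM in WT and at 18.5, 21.3 and 17.9 CPM in Lama4-/- (log2 fold change 0.40 ± 0.10, SE, unadjusted p = 0.00446). Gjb1, connexin 32 of oligodendrocytes, stood at 20.3, 18.1 and 22.4 CPM in WT and at 24.5, 32.3 and 27.3 CPM in Lama4-/- (0.47 ± 0.12, unadjusted p = 0.00363). Neither gene had overlapping groups, which was a condition of naming for both. Astrocyte markers had a median of 0.03 over 9 genes and reactive astrocyte genes one of 0.17 over 12, with 0 at a p under 0.05 in either list. The reactive astrocyte median was -0.03 without Lama4-/- library 1 and 0.38 without Lama4-/- library 3.

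**Figure D4:**
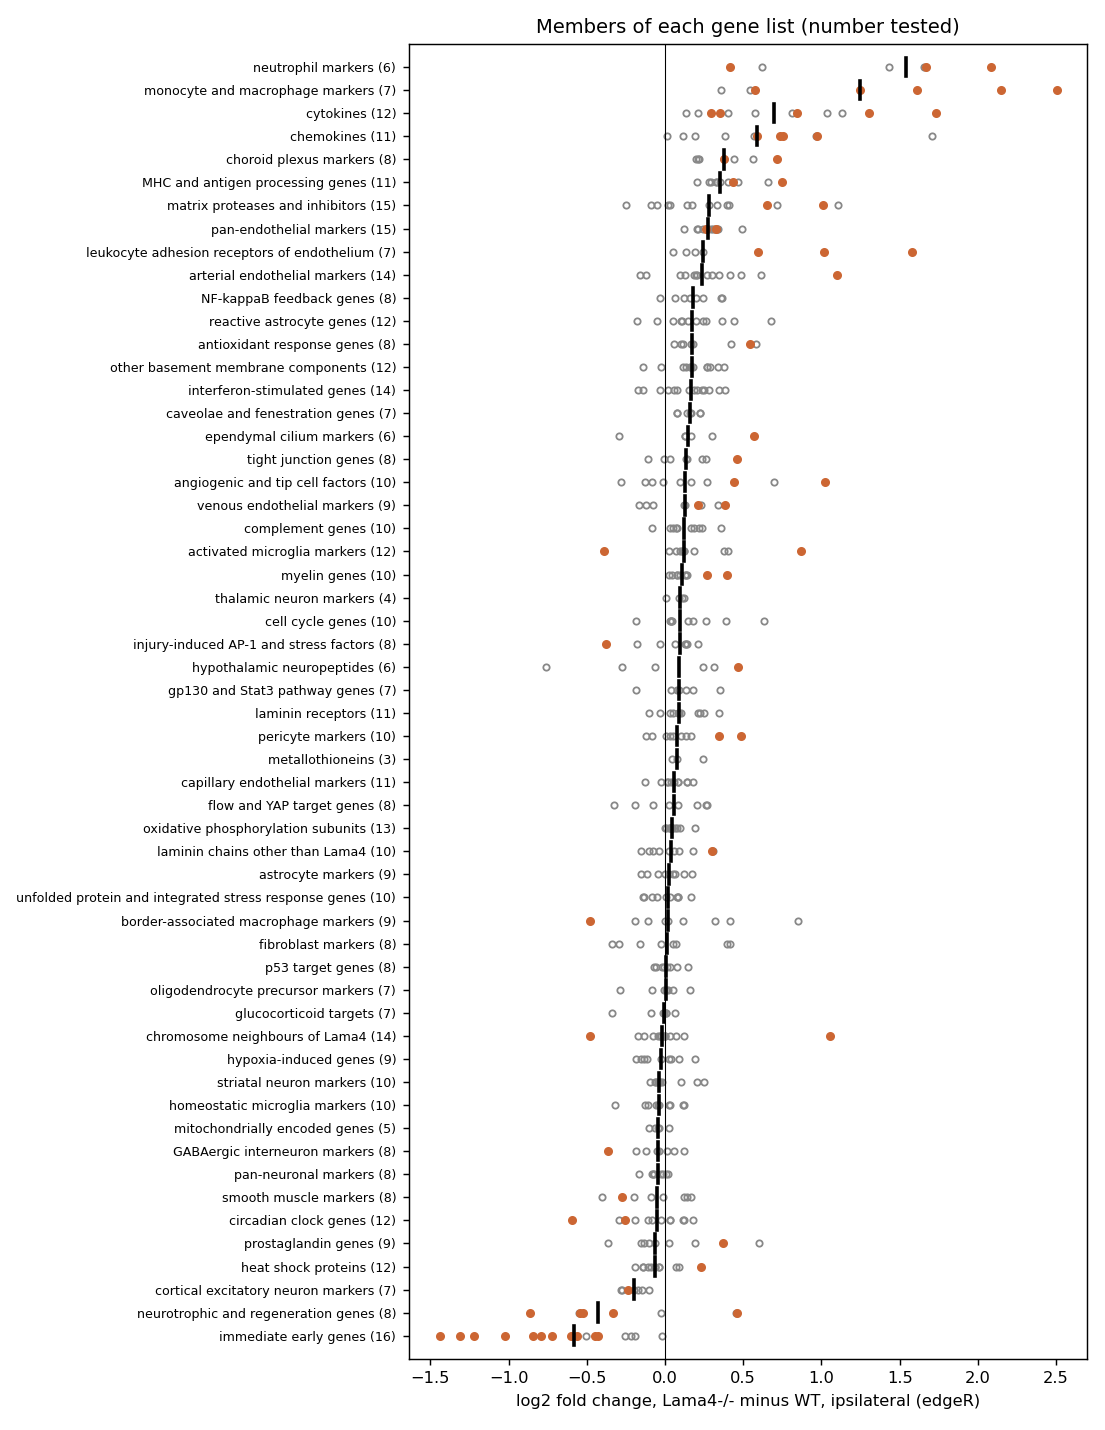
Log2 fold change of each tested member of each list with at least 3 tested members (number tested in brackets). Filled orange points have an unadjusted edgeR p under 0.05, open points do not, and black bars are list medians, ordered from 1.54 for neutrophil markers to -0.58 for immediate early genes; most lists centre near 0.

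Genes outside these lists that the naming rule took are given next. The rule asks for groups that do not overlap, which held for 1205 of 15208 genes (7.92%). Their separation was thus a condition of naming. Trib2, a pseudokinase, stood at 74.1, 63.1 and 60.9 CPM in WT and at 42.8, 48.8 and 45.3 CPM in Lama4-/- (log2 fold change -0.53 ± 0.09, SE, unadjusted p = 0.000274; contralateral -0.62 ± 0.12). Ccdc3, a secreted protein, stood at 27.7, 22.6 and 24.0 CPM in WT and at 17.2, 14 and 16.8 CPM in Lama4-/- (-0.63 ± 0.11, unadjusted p = 0.000327). Rem2, a small GTPase that restrains calcium channels, was at -0.51 ± 0.10 (unadjusted p = 0.000829) and at -0.09 ± 0.11 contralaterally, and Rhbdl3, a rhomboid family gene, at -0.35 ± 0.07 (unadjusted p = 0.000763). Pcdha7, at -0.73 ± 0.15, shares exons with the other protocadherin alpha genes, so its reads are uncertain. On the higher side, Crlf2, a chain of the receptor for thymic stromal lymphopoietin, was at 0.32 ± 0.08 (unadjusted p = 0.00324), and Slfn5, an interferon-inducible gene that overlaps its antisense Slfn5os, at 0.33 ± 0.08 (unadjusted p = 0.00383).

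**Figure D5:**
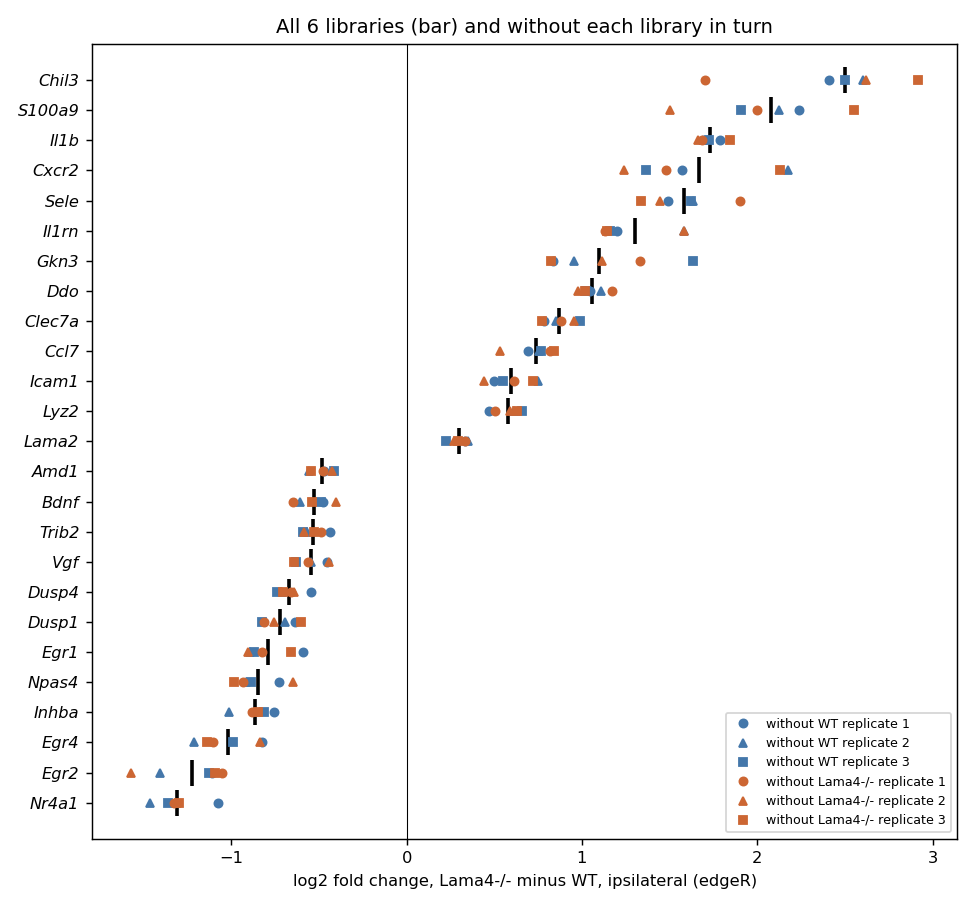
Log2 fold change (Lama4-/- minus WT, ipsilateral, edgeR) of 25 genes with all 6 libraries (black bar) and with each library left out in turn (blue for WT, orange for Lama4-/-; circle, triangle and square for replicates 1, 2 and 3). No point crosses 0; Ddo and Il1b move little, whereas Chil3 is at 1.70 without Lama4-/- replicate 1 and S100a9 at 2.55 without Lama4-/- replicate 3.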

How the data were processed

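RNA was measured in 12 libraries of mouse brain hemispheres. The authors deposited raw counts, whole numbers with no normalization. The submitters' processing notes name build mm10 and, in no stated order, featureCounts 1.6.4, STAR 2.6.0, DESeq2, bcl2fastq and FastQC 0.72. The kit named in the labels' protocols is one for single cells, while tissue RNA was sequenced here; neither the annotation nor the strandedness of the counting is given in the sources used here. The authors' deposited table also holds normalized signal, equal to the counts divided by 1 factor per library, a fold (ratio), a log2 fold change and a Wald p-value and adjusted p-value per gene, per the file headers; these served only where the text names that table. Another 42 per-library columns were not used.

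Groups came from the labels. The counts were tested in edgeR 4.0.16 (R 4.3.3; TMM, filterByExpr, robust quasi-likelihood F test) on the 6 ipsilateral libraries, with Benjamini-Hochberg adjustment over all genes tested. Contralateral values come from the same fit of their 6 libraries, and the hemisphere difference from an interaction on all 12 libraries. Levels are CPM with TMM factors; log2 fold changes carry the SE. DESeq2 1.42.0 and voom of limma 3.58.1 were run beside it. The p-values measure the spread between pools of 2 mice. The scripts were tested on simulated data. Coordinates are of GENCODE M21, which held 19859 of 20347 symbols, and promoters of RefSeq.

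Members and the 58 lists (560 symbols, 550 with an entry, 529 tested) were chosen with earlier results of these data known, and no list was tested as a set. Named genes are Lama4, the 12 genes per direction with the smallest p among those with a mean log2 CPM of at least 1 and groups that do not overlap, and from each list its first 2 members and the 3 with the smallest p; of these 250 the text gives a part. For the 12 genes per direction, groups that do not overlap were a condition of naming. The CArG box search and the counts of list members under each setting were added after the data were seen.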

Additional observations from a re-analysis of the deposited data

How the results depend on the processing

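edgeR called 1 gene, Lama4, with DESeq2 size factors, without a filter on low counts and with a filter of 1 CPM in at least 3 libraries. The voom fit of limma called the same gene only. DESeq2 called 20 genes, and edgeR called 3 on all 12 libraries (Lama4, Ddo and Il1b). With each library left out in turn the count ran from 1 to 5; it was 5 without WT ipsilateral replicate 2 (Lama4, Chaf1a, Ccl11, Nr4a1 and Efhd2) and 2 without WT ipsilateral replicate 1. The cause was not tested. Genes with an unadjusted p under 0.05 then numbered 237 to 1206, against 531. For the difference between hemispheres the count ran from 0 to 1 and was 1 without WT contralateral replicate 2. The log2 fold change of Fos ran from -0.54 to 0.026, reversed without Lama4-/- ipsilateral replicate 3. Of the other gene values under an alternative, 1387 kept direction and side of the threshold and 26 passed it.

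The same replicate number stands for different mice in the 2 genotypes. Same-numbered libraries had deviations correlated at r = -0.15, 0.41 and 0.20, and differently numbered ones at r = -0.48 to 0.42. Whether the numbers mark a shared batch was not tested. With the number as a replicate block edgeR called 4 genes (Lama4, Arc, Egr4 and Dusp1), and 872 had an unadjusted p under 0.05. Depth limits low genes: Cxcr2 rests on 5 to 46 reads a library.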
